A study of Mus musculus with 10 samples.

Results

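The genes described here are 9 markers of formative and primed pluripotency: Fgf5, Otx2, Pou3f1, Zic2, Sall2, Foxd3, Sox4, Sox11 and Grhl2. They were chosen by name, each as the row of the count table whose identifier carries that symbol, so they are 9 of the 51467 genes in the table. mRNA was measured by QuantSeq, which sequences one tag next to the poly(A) tail of each transcript, in 10 libraries of mouse embryonic stem cells (ESCs) that had all been grown in serum with LIF and 2i (the MEK inhibitor PD0325901 and the GSK3 inhibitor CHIR99021). Wild-type cells (WT) gave 3 libraries, and cells lacking DGCR8 (DGCR8 KO) gave 3. Cells lacking DDX6 (DDX6 KO) gave 4, with 2 from each of 2 CRISPR-Cas9 clones made from the V6.5 line. The DGCR8 KO libraries come from a single established line and each pair of DDX6 KO libraries from a single clone, so that line or clone and genotype cannot be told apart in these groups. No label says whether libraries of a group came from separate cultures, and p-values therefore measure only the spread between these libraries, which may be technical.

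Naive ESCs correspond to the epiblast before implantation. When LIF and 2i are withdrawn they pass through a formative state, in which transcription factors such as OCT6 (Pou3f1), OTX2, ZIC2 and FOXD3 take part in moving the cells to new enhancers, and then become primed, like the epiblast after implantation. DGCR8 is the RNA-binding partner of DROSHA that starts the maturation of most miRNAs. DDX6 is an RNA helicase of processing bodies that is recruited by the miRNA silencing complex and acts in translational repression. The comparisons ask how each marker stood in ESCs without miRNAs and in ESCs without this effector.

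The total count over genes was 2131156 to 4745083 per library, and 3 counts, the floor used here, equalled 0.669 to 1.44 CPM, the unit of level used here, in which every library is brought to the same total. Floors and exact counting intervals cover counting error only, while the intervals of log2 fold changes come from limma and rest on the spread between libraries. Dgcr8 stood at 11.6 ± 3.41 CPM (SD, n = 3) in DGCR8 KO against 56.1 ± 8.41 (n = 3) in WT. Ddx6 stood at 142 ± 10.5 CPM (n = 2) in DDX6 KO clone 1 and 32.4 ± 9.41 (n = 2) in clone 2 against 538 ± 42.3 (n = 3) in WT, so both targeted genes were low in the libraries labelled as their knockouts. The ESC factor Pou5f1 (OCT4) was present in all 10 libraries, at 44.3 to 73.7 CPM. None of the 9 genes lies on chromosome 6, where the median log2 fold change was 0.59 in DDX6 KO, or on chromosome 8, where it was -0.45 in DGCR8 KO. On the 6 chromosomes that hold them it lay between -0.06 and 0.09 against WT in both knockouts.

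The miRNAs that dominate mouse ESCs, the ESC-specific cell cycle-regulating (ESCC) family, share a seed. They are shown because DGCR8 KO cells lack them and because the seed defines the matches searched below. Their levels were not measured here, and in the paper's reporter line naive ESCs were negative for miR-302. The 5 mature RefSeq sequences with the same bases 2 to 8, which are in capitals, read 5′ to 3′:
miR-291a-3p: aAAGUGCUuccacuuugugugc
miR-294-3p: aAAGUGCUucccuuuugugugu
miR-295-3p: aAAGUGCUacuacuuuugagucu
miR-302b-3p: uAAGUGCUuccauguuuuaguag
miR-302d-3p: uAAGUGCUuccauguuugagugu
The 3′ UTR of the principal coding transcript of each marker (Gencode, GRCm38) was searched on the sense strand for AGCACTT (pairing with bases 2 to 8), GCACTTA (bases 2 to 7 followed by A) and AGCACTTA, which holds both and was counted once. Grhl2 was the single gene of the 9 with a match, and it held 2, both AGCACTT. They lie in its 3′ UTR on the plus strand of chromosome 15, at position 1480 and position 1871 of 2718, and are printed with 8 bases on each side and the match in capitals:
Grhl2 chr15:37362323-37362345: gtctgcgaAGCACTTtgatgttt
Grhl2 chr15:37362714-37362736: tgtgctatAGCACTTggggctag
Of 10904 tested genes with an annotated 3′ UTR, 20.02% held at least 1 such match and 4.43% held at least 2. With the shorter GCACTT, 3 of the 9 genes held a match, namely Grhl2, Sox11 and Sox4, against 32.2% of tested genes. Sox11 has the longest 3′ UTR of the 9, 6957 bases, and Foxd3 the shortest, 588, beside a median of 1063 over tested genes. A match is a description of the letters and not a measured site.

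Fgf5 encodes a secreted growth factor that is a classical marker of the formative and primed epiblast (ENSMUSG00000029337, chromosome 5, 98254184 to 98277030, plus strand, GRCm38). It had 0 counts in all 10 libraries, which allows up to 3 counts per library, or 0.669 to 1.44 CPM. It was therefore not tested, and any change in Fgf5 was not detectable at this depth. The other 8 genes passed the filter of at least 3 CPM in at least 3 libraries and were tested among 11683 genes.

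Because each transcript gives one tag, CPM was not divided by length. How fully the tags of each gene were captured and uniquely aligned was not tested, so the orders below are of CPM. In WT the order by mean CPM was Foxd3 (58.8), Otx2 (35.8), Sox11 (31.0), Sox4 (25.9), Sall2 (17.5), Zic2 (16.8), Pou3f1 (10.4), Grhl2 (1.15) and Fgf5 (0). The libraries of neighbours in that order overlapped for Otx2 and Sox11, Sox11 and Sox4, Sall2 and Zic2, and Zic2 and Pou3f1, and did not overlap for the other pairs. In DGCR8 KO, Sox11 (107) and Foxd3 (82.7) came first with overlapping libraries, and Pou3f1 (4.88) came last of the detected genes. In DDX6 KO, Sox4 (76.3) and Sox11 (57.5) came first with overlapping libraries, while Pou3f1 (8.34), Grhl2 (7.78) and Otx2 (7.76) formed an overlapping group at the lower end. The summed level of the 9 genes was 181 to 215 CPM in WT, 281 to 347 CPM in DGCR8 KO and 195 to 243 CPM in DDX6 KO.

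**Figure D1:**
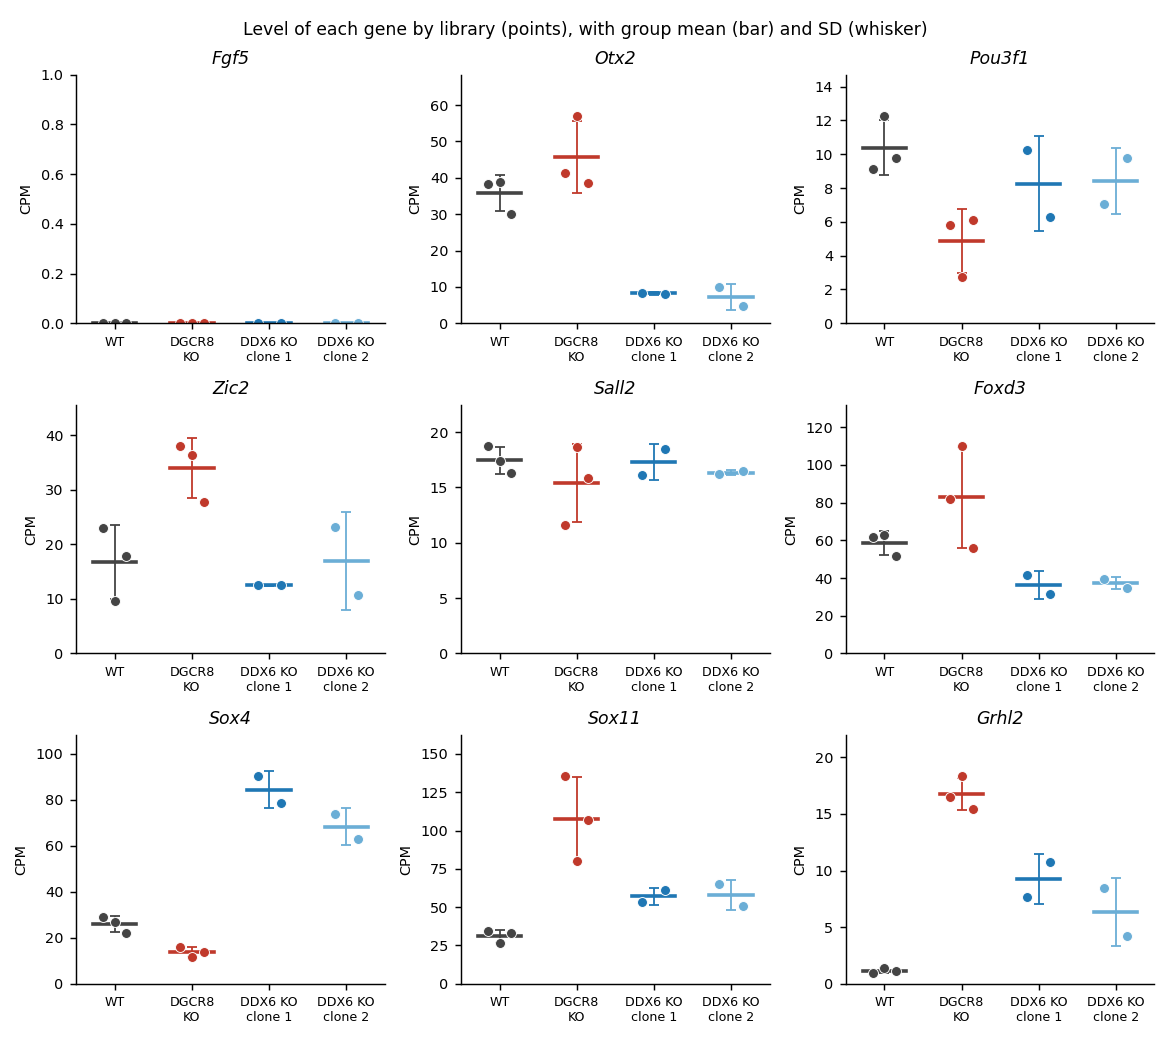
Level of each of the 9 genes in CPM (linear axes from 0) in the 3 WT, 3 DGCR8 KO, 2 DDX6 KO clone 1 and 2 DDX6 KO clone 2 libraries. Points are libraries, bars group means and whiskers SD; Otx2 is low and Sox4 high in all 4 DDX6 KO libraries, and Fgf5 is at 0 throughout.

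Otx2 and Foxd3, transcription factors of the formative state, stood lower in DDX6 KO than in either other genotype. Otx2 (ENSMUSG00000021848, chromosome 14, 48657679 to 48667513, minus strand) is a homeobox factor that binds new enhancers as cells leave naive pluripotency. Its level was 38.4, 38.8 and 30.1 CPM in WT, 41.3, 57.0 and 38.7 in DGCR8 KO, 8.42 and 8.0 in DDX6 KO clone 1, and 9.85 and 4.76 in clone 2. All 4 DDX6 KO libraries lay below every other library, whereas WT and DGCR8 KO overlapped. Otx2 fell in DDX6 KO to 21.7% of the WT mean, a log2 fold change of -2.22 ± 0.26 (SE; adjusted p = 5.2e-06), and it was the only one of the 8 genes called lower in that comparison. Against WT in DGCR8 KO the log2 fold change was 0.38, with a 95% interval of -0.01 to 0.77 (adjusted p = 0.12). In these bulk samples, fewer cells with a transcript and less of it per cell cannot be told apart.

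Foxd3 (ENSMUSG00000067261, chromosome 4, 99656299 to 99658622, plus strand, a single exon) encodes a forkhead factor needed in the early epiblast. WT libraries held 61.9, 63.0 and 51.5 CPM, DGCR8 KO libraries 82.1, 109.9 and 56.2, DDX6 KO clone 1 libraries 41.8 and 31.3, and clone 2 libraries 39.4 and 34.98. The 4 DDX6 KO libraries were again below all others, and the DGCR8 KO libraries were the most spread. Foxd3 fell in DDX6 KO by 0.66 on the log2 scale (SE 0.19, adjusted p = 0.014), less than the 1 log2 unit used for a call. Neither clone passed on its own (adjusted p = 0.061 for clone 1 and 0.063 for clone 2). In DGCR8 KO its log2 fold change of 0.48 (adjusted p = 0.054) did not pass, but it did with the replicate number as a block (0.45, adjusted p = 0.016) and without DGCR8 KO replicate 3 (0.71, adjusted p = 0.0022). A small gene annotated on the same strand within Foxd3, Gm23366, had no counts.

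Pou3f1, Zic2 and Sall2 are the remaining transcription factors of the formative and primed epiblast in the set. Pou3f1 (ENSMUSG00000090125, chromosome 4, 124656807 to 124660655, plus strand, a single exon) encodes OCT6, a POU factor that works with OTX2. It held 9.12, 12.3 and 9.81 CPM in WT, 5.82, 2.71 and 6.11 in DGCR8 KO, 10.3 and 6.26 in DDX6 KO clone 1, and 7.04 and 9.80 in clone 2. DGCR8 KO libraries lay below all others, and DDX6 KO overlapped WT. Pou3f1 fell in DGCR8 KO by 1.15 on the log2 scale (SE 0.35, adjusted p = 0.015), from 99 counts over the 3 WT libraries to 42 over the 3 DGCR8 KO libraries. Without DGCR8 KO replicate 2 the log2 fold change was -0.78 and did not pass (adjusted p = 0.095). In DDX6 KO it was -0.33, with an interval of -0.90 to 0.25.

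Zic2 (ENSMUSG00000061524, chromosome 14, 122475435 to 122479852, plus strand) encodes a zinc-finger factor that occupies epiblast enhancers and later patterns the neural plate. Its level was 23.0, 9.54 and 17.8 CPM in WT, 38.0, 36.3 and 27.7 in DGCR8 KO, 12.5 and 12.5 in DDX6 KO clone 1, and 23.2 and 10.6 in clone 2. The DGCR8 KO libraries were above every other library. Zic2 rose in DGCR8 KO by a log2 fold change of 1.12 ± 0.27 (SE; adjusted p = 0.0032), which fell below 1 without WT replicate 2 (0.79, adjusted p = 0.024). In DDX6 KO the log2 fold change was -0.17, with an interval of -0.78 to 0.45.

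Sall2 (ENSMUSG00000049532, chromosome 14, 52311172 to 52328762, minus strand) encodes a spalt-family zinc-finger factor. It held 18.7, 17.4 and 16.3 CPM in WT, 11.6, 18.7 and 15.9 in DGCR8 KO, 16.1 and 18.4 in DDX6 KO clone 1, and 16.2 and 16.5 in clone 2, and all groups overlapped. No change in Sall2 passed the test. The 95% interval of its log2 fold change was -0.65 to 0.25 in DGCR8 KO and -0.44 to 0.37 in DDX6 KO, so a change beyond 1 lay outside both intervals.

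Sox4 and Sox11 encode SOXC-type HMG-box factors, which are known from neural and mesenchymal progenitors and share a DNA-binding domain type. Both are single-exon genes. Sox4 (ENSMUSG00000076431, chromosome 13, 28948919 to 28953713, minus strand) held 28.8, 26.9 and 21.8 CPM in WT, 15.9, 11.5 and 13.8 in DGCR8 KO, 90.1 and 78.6 in DDX6 KO clone 1, and 73.9 and 62.7 in clone 2. The 3 genotypes did not overlap, with DGCR8 KO lowest and DDX6 KO highest. Sox4 rose in DDX6 KO by a log2 fold change of 1.58 ± 0.17 (SE; adjusted p = 1.8e-06). It fell in DGCR8 KO by 0.86 (SE 0.23, adjusted p = 0.0077).

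Sox11 (ENSMUSG00000063632, chromosome 12, 27334264 to 27342574, minus strand) held 34.1, 26.2 and 32.8 CPM in WT, 135, 80.1 and 107 in DGCR8 KO, 53.1 and 60.9 in DDX6 KO clone 1, and 65.1 and 50.9 in clone 2. Here too the genotypes did not overlap, but the order was WT, DDX6 KO and DGCR8 KO. Sox11 rose by a log2 fold change of 1.77 ± 0.19 (SE; adjusted p = 1.5e-06) in DGCR8 KO and of 0.89 ± 0.19 (adjusted p = 0.0018) in DDX6 KO. The 2 genes both rose in DDX6 KO and passed in opposite directions in DGCR8 KO. When libraries were scaled by spike-in RNAs instead, Sox4 did not pass in DGCR8 KO and Sox11 did not pass in DDX6 KO.

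Grhl2 (ENSMUSG00000022286, chromosome 15, 37233036 to 37363569, plus strand) encodes a grainyhead-like factor that opens epithelial enhancers in the formative and primed epiblast. Counts were 2, 4 and 5 in WT replicates 1, 2 and 3, 54, 54 and 38 in DGCR8 KO, 21 and 31 in DDX6 KO clone 1, and 24 and 15 in clone 2. On the CPM scale WT held 0.960, 1.36 and 1.11, DGCR8 KO 16.5, 18.3 and 15.5, DDX6 KO clone 1 7.69 and 10.8, and clone 2 8.44 and 4.20. Grhl2 passed the filter through the knockouts alone, and none of the 3 genotypes overlapped. It rose by a log2 fold change of 3.70 ± 0.52 (SE; adjusted p = 2.4e-05) in DGCR8 KO and of 2.48 ± 0.53 (adjusted p = 0.0015) in DDX6 KO. Its WT level rests on 11 counts over 3 libraries. The pooled ratio of scaled counts to WT was 14.6 (exact 95% counting interval 7.90 to 29.8) in DGCR8 KO and 6.54 (3.49 to 13.6) in DDX6 KO. Grhl2 is also the gene with the pair of ESCC seed matches printed above, and whether these act in the cells was not tested. The genes annotated within Grhl2 on either strand had at most 4 counts in a library.

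In DGCR8 KO against WT, 5 of the 8 tested genes passed at an adjusted p under 0.05, with Grhl2, Sox11 and Zic2 higher and Pou3f1 and Sox4 lower, where 36.3% of all tested genes passed. With the added requirement of a log2 fold change beyond 1 in size, 4 were called, 3 higher and 1 lower, against 14.7% of all tested genes. Libraries did not overlap between the groups for 5 of the 8, and for 44.8% of all tested genes. The median log2 fold change of the 8 was 0.43, beside 0.00 over all tested genes. Scaled by the spike-in RNAs, the called genes were Grhl2 and Sox11, 2 higher and 0 lower. Zic2 (adjusted p = 0.18), Sox4 (adjusted p = 0.16) and Pou3f1 did not pass with that scaling.

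In DDX6 KO against WT, 5 of the 8 also passed, with Grhl2, Sox4 and Sox11 higher and Otx2 and Foxd3 lower, where 34.5% of all tested genes passed. Of these, 3 were called (Grhl2, Sox4 and Otx2), against 11.2% of all tested genes. With spike-in scaling these 3 passed, and Foxd3 (adjusted p = 0.49) and Sox11 (adjusted p = 0.16) did not. Libraries did not overlap for 5 of the 8 and for 39.9% of all tested genes. The median log2 fold change of the 8 was -0.10, beside 0.02 over all tested genes. Both comparisons share the WT libraries. Grhl2 alone was called in both, and since its WT libraries lay below the filter, it could enter the test only by being higher in a knockout.

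**Figure D2:**
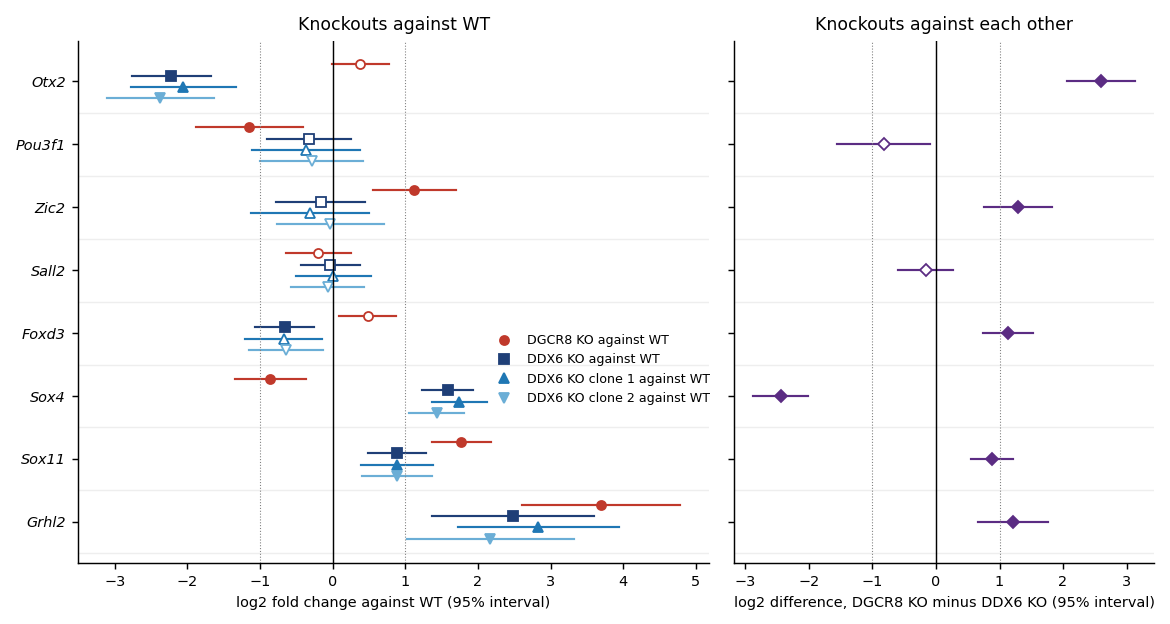
Left, log2 fold change against WT with its 95% interval for the 8 tested genes in DGCR8 KO, in DDX6 KO and in each DDX6 KO clone. Right, the log2 difference between the knockouts, DGCR8 KO minus DDX6 KO. Filled symbols passed at an adjusted p under 0.05 and dotted lines mark 1 log2 unit; Otx2 and Sox4 differ most between the knockouts, in opposite directions.

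The direct comparison of DGCR8 KO with DDX6 KO does not use the WT level, and 6 of the 8 genes passed it, where 44% of all tested genes did. Of these, 5 were called, 4 higher in DGCR8 KO and 1 lower, against 17.1% of all tested genes. Libraries did not overlap for 7 of the 8 and for 45.8% of all tested genes. Otx2 was higher in DGCR8 KO by 2.60 ± 0.26 on the log2 scale (SE; adjusted p = 2.9e-07) and Sox4 lower, at -2.44 ± 0.21 (adjusted p = 5.1e-08). These were the largest differences of the 8, and both remained called with spike-in scaling, which left 1 higher and 1 lower. Zic2 was higher in DGCR8 KO by 1.29 (adjusted p = 5.6e-04), Foxd3 by 1.139 (adjusted p = 9.3e-05) and Grhl2 by 1.21 (adjusted p = 0.0012). Foxd3 fell below 1 without DGCR8 KO replicate 2 (0.92), and Grhl2 did so without DDX6 KO clone 2 replicate 2 (0.90) or with clone 1 alone (0.84). Sox11 passed with a difference of 0.88 (adjusted p = 2.2e-04). Pou3f1 did not (-0.82, interval -1.55 to -0.10, adjusted p = 0.062), although its libraries did not overlap, and it did pass with total counts or with chromosomes 6 and 8 left out of the scaling, which gave 5 higher and 2 lower. The direction of each passing difference was kept under every alternative run.

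The DDX6 KO clones were compared to see whether the markers depended on the clone. In limma, 0 of the 8 genes passed, and 0 did at an unadjusted p under 0.05, in edgeR or in DESeq2. Over all tested genes 0.0428% passed. The widest differences, clone 2 minus clone 1, were -0.66 for Grhl2 (interval -1.48 to 0.16), -0.31 for Otx2 (-1.26 to 0.63) and -0.31 for Sox4 (-0.67 to 0.04), and the Sox4 libraries of the clones did not overlap. Against WT, each clone passed for the same 4 genes, Otx2, Sox4, Sox11 and Grhl2, where 23.8% of all tested genes passed in clone 1 and 24.6% in clone 2. The log2 fold change of Otx2 was -2.06 in clone 1 and -2.37 in clone 2, and that of Sox11 was 0.88 and 0.89. Sox4 gave 1.74 and 1.43, and Grhl2 2.83 and 2.17. Residual Ddx6 transcript differed between the clones as given above, and its part in these values was not tested.

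Of 23 other genes of the formative and primed states, 15 were tested. In DGCR8 KO 10 passed, 7 higher and 3 lower (2 and 1 with spike-in scaling), with a median log2 fold change of 0.50, where 36.3% of all tested genes passed. Lin28b, an inhibitor of let-7 maturation, rose from 10.3 ± 2.07 CPM in WT to 45.3 ± 3.22 (both SD, n = 3), a log2 fold change of 2.14 (adjusted p = 2.4e-07). The N-cadherin gene Cdh2 rose by 1.75, and the Zic2 relative Zic5 by 0.69. Tcf15, an early marker of cells leaving the naive state, fell by 2.05, the de novo DNA methyltransferase gene Dnmt3b by 0.80 and the ETS factor gene Etv5 by 0.75.

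In DDX6 KO 8 of these 15 passed, 4 higher and 4 lower, with a median of 0.03, where 34.5% of all tested genes passed. With spike-in scaling 2 were higher and 4 lower. Etv4 rose by 1.98, from 22.1 ± 3.25 CPM (n = 3) in WT to 89.7 ± 4.72 (n = 4), while its relative Etv5 fell by 1.71. Lin28b rose by 1.40, Sox3 by 1.31 and Dnmt3a by 0.60, whereas Tcf15 fell by 1.66 and Dnmt3b by 1.35. Lef1, a WNT-responsive factor, stood at 133 counts over the 3 WT libraries and at 5 over the 4 DDX6 KO libraries, with at most 3 in any of these. That is a scaled ratio of 0.0297 (exact 95% counting interval 0.00949 to 0.0711). Directly, 8 were higher in DGCR8 KO and 1, Etv4, was lower, where 44% of all tested genes passed. With spike-in scaling 2 were higher and 1 lower.

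Naive pluripotency genes, which 2i holds high, were compared in the same way. All 15 were tested, and 9 passed in each knockout against WT, beside the same 36.3% and 34.5% of all tested genes. In DGCR8 KO 8 of the 9 were lower, among them Dppa3 by 2.29 and Nr5a2 by 0.73, and Klf2 was higher by 0.92. The median was -0.34, and with spike-in scaling 0 passed higher and 1 lower. In DDX6 KO 6 were lower, among them Dppa3 by 2.11, Tcl1 by 1.08 and Nr5a2 by 0.70, and 3 were higher, namely Nanog by 0.62, Tbx3 by 0.59 and Klf2 by 0.36. The median was -0.01, and with spike-in scaling again 0 passed higher and 1 lower. Nanog, a core naive factor, stood at 569 ± 50.1 CPM (n = 3) in WT, 451 ± 72.9 (n = 3) in DGCR8 KO and 869 ± 57.3 (n = 4) in DDX6 KO.

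**Figure D3:**
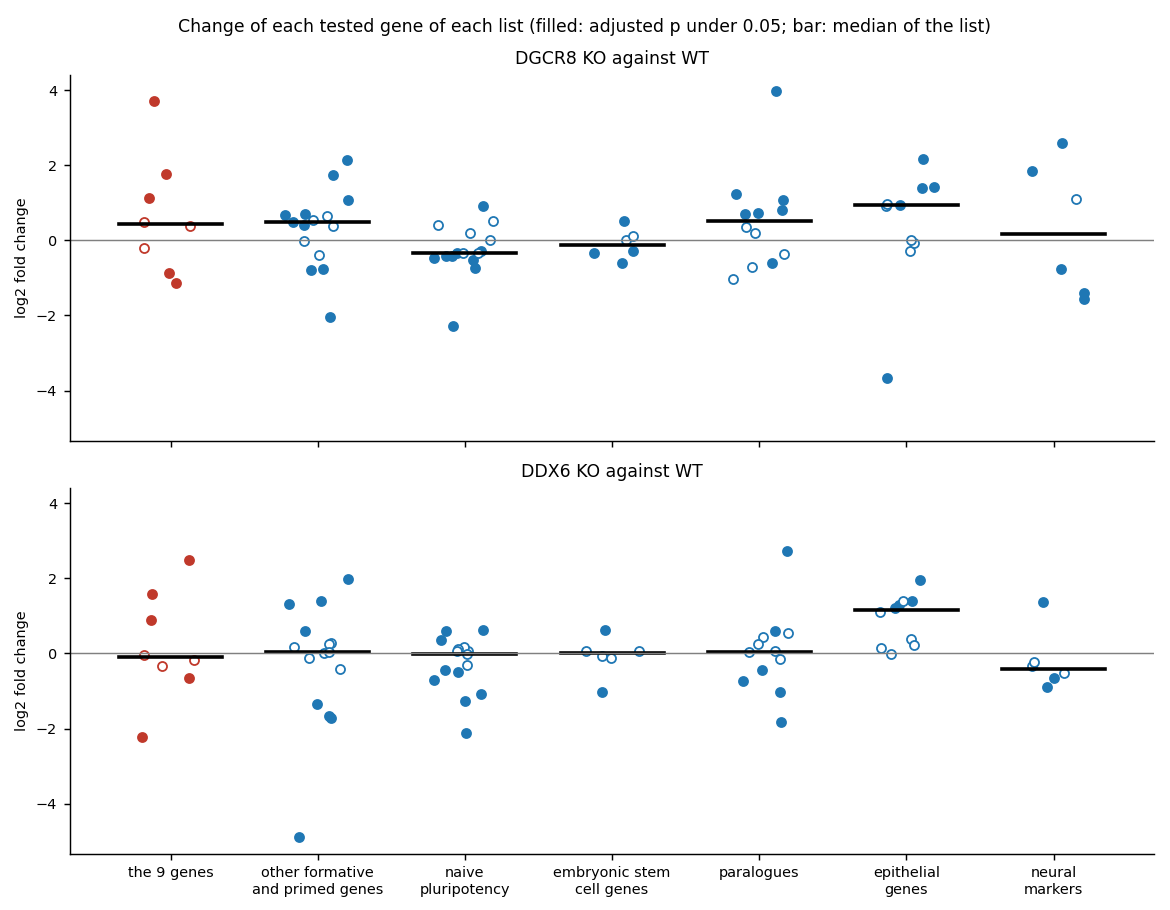
log2 fold change against WT of each tested gene of 7 lists in DGCR8 KO (top) and DDX6 KO (bottom). Filled points passed at an adjusted p under 0.05 and bars are list medians; the 8 tested genes of the 9, in the first column, spread to both sides of 0 in both knockouts, with medians of 0.43 and -0.10.

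Paralogues of the 9 genes were taken next. Of 21 listed, 12 were tested, and 7 passed in DGCR8 KO (6 higher, 1 lower; 1 and 0 with spike-in scaling) and 6 in DDX6 KO (2 higher, 4 lower; 1 and 1 with spike-in scaling), again beside 36.3% and 34.5% of all tested genes. Foxd1, a relative of Foxd3, rose from 3.38 ± 2.62 CPM in WT to 50.0 ± 9.45 in DGCR8 KO and 20.9 ± 3.98 (n = 4) in DDX6 KO, while Foxd3 itself fell in DDX6 KO. Sall3 rose by 1.23 in DGCR8 KO, where Sall1 rose by 0.74, and Sall1 rose by 0.59 in DDX6 KO, and Sall4 fell by 0.61 and 1.03, whereas no change in Sall2 passed. Sox12, the third SOXC gene, fell in DDX6 KO by 0.73, where Sox4 and Sox11 rose. Otx1 rose in DGCR8 KO by 0.80.

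Epithelial genes were listed because Grhl2 acts on them. Of 12, 10 were tested, and 5 passed in DGCR8 KO (4 higher, 1 lower; 1 and 1 with spike-in scaling) and 4 in DDX6 KO, all higher (2 with spike-in scaling), beside 36.3% and 34.5% of all tested genes. Epcam rose by 1.38 in DGCR8 KO, from 62.7 ± 6.52 to 161 ± 12.9 CPM (n = 3 each), Krt8 by 1.43 and Cldn3 by 0.95. Cldn6 averaged 5.33 CPM in WT and 0.79 in DGCR8 KO. Esrp1 lay at 1.36 CPM or less in every WT library, below the filter. It could enter the test, and so these counts and medians, only by being higher in a knockout. In DDX6 KO, Krt8 rose by 1.94, Cldn7 by 1.41, Krt18 by 1.29 and Cldn4 by 1.21. The medians were 0.93 and 1.16. The E-cadherin gene Cdh1 stood at 1727 to 3242 CPM, and its change did not pass in either comparison.

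Markers of other cell types were measured beside these. Of 6 general ESC genes, 4 passed in DGCR8 KO, 1 higher and 3 lower (0 and 0 with spike-in scaling), beside 36.3% of all tested genes. Sox2 rose there by 0.50, while Sall4 fell by 0.61, Nanog by 0.33 and Zfp42 by 0.27. Of 10 neural markers 6 were tested, and among them Ncam1 rose by 1.85 in DGCR8 KO and fell by 0.66 in DDX6 KO, while Sox1, in the same direction as Sox4, fell by 0.75 in DGCR8 KO and rose by 1.37 in DDX6 KO. Tubb3 fell by 1.55 and Nes by 1.39 in DGCR8 KO, and Nes also fell in DDX6 KO, by 0.90. The summed level of the neural list was 159 to 206 CPM in WT, 261 to 299 in DGCR8 KO and 165 to 226 in DDX6 KO. Ncam1 alone went from a mean of 59.4 CPM in WT to 217 in DGCR8 KO. There 5 of the 6 tested neural markers passed, 3 of them lower, beside 36.3% of all tested genes. In DDX6 KO 3 passed, 1 higher and 2 lower (1 and 0 with spike-in scaling), beside 34.5% of all tested genes. Pax6 met the filter through DGCR8 KO alone, at 3.73 to 5.70 CPM there and at most 1.44 in the other libraries. The summed level of 6 primitive endoderm markers was 7.58 to 11.04 CPM in WT, 3.26 to 4.75 in DGCR8 KO and 16.5 to 24.2 in DDX6 KO. Dab2, the single one tested, fell by 2.36 in DGCR8 KO and rose by 1.56 in DDX6 KO. Its mean was 6.29 CPM in WT, 1.06 in DGCR8 KO and 16.6 in DDX6 KO, which is most of the shift in these sums. Each of the others averaged at most 1.87 CPM in any genotype. Sox7 had 0 counts in every WT and DGCR8 KO library. The 6 markers of 2-cell-like cells summed to 0.960 to 4.77, 2.85 to 11.6 and 11.1 to 25.2 CPM. In every WT library each lay below the filter of 3 CPM, so these could enter the test only by being higher in a knockout. All 3 that were tested were called higher in DDX6 KO against WT, beside 11.2% of all tested genes. Their median log2 fold change was 2.25. Directly, 2 of these 3 were called lower in DGCR8 KO, beside 17.1% of all tested genes. Usp17lc met the filter through DDX6 KO alone, with at most 3 counts in a DGCR8 KO library, and Zscan4c mainly through DDX6 KO. The filter therefore favoured this direction, and the share over all tested genes is not a like background. The mesendoderm list summed to 12.3 to 24.5 CPM over all libraries, the trophoblast list to 10.6 to 29.3 CPM with Elf5 at 0 in all 10 libraries, and the fibroblast list to 2.44 to 9.52 CPM. The part of such cells in the values of the 9 genes was not tested.

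For each gene that was called in at least 1 comparison and averaged at least 10 CPM, near patterns were sought among 8343 tested genes by the root mean square difference, over the 10 libraries, of log2 levels centred on the WT mean. Six4 (0.15 log2 units) and Spats2l (0.17) were near to Foxd3, Ash1l (0.22) to Sox11, Lama5 (0.25) and Scrn1 (0.27) to Zic2, Ldhb (0.31) and Gnb4 (0.42) to Otx2, and Apod (0.32) and Cald1 (0.36) to Sox4. Ldhb held 31.6 CPM in WT, 43.5 in DGCR8 KO and 7.68 in DDX6 KO, beside 35.8, 45.7 and 7.76 for Otx2. Apod held 14.6, 7.54 and 38.7 CPM, which is lower than Sox4 in each genotype with the same order. These likenesses are descriptions over libraries that share their genotypes, and carry no test.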

How the data were processed

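The deposited table holds raw counts of QuantSeq 3′ FWD reads per gene in 10 libraries, which the authors made by trimming with cutadapt 1.14, aligning to mm10 with STAR 2.5.3a, keeping unique reads, and counting sense-strand exon reads with featureCounts 1.5.3 against a Gencode annotation with 92 ERCC spike-ins added (versions per the submitters' processing notes). No molecular identifiers are stated. Libraries were grouped by their titles. Of 51467 genes, 51274 were paired with a symbol. The 11683 genes that reached 3 CPM in 3 or more libraries were tested with limma 3.58.1 (voom weights; R 4.3.3) after TMM scaling in edgeR 4.0.16, all libraries in 1 model with genotype as its term, and clones from a fit with 4 groups. Passed means a Benjamini-Hochberg adjusted p over all tested genes under 0.05, two-sided, and called means passed with a log2 fold change beyond 1 in size. DESeq2 1.42.0, edgeR's quasi-likelihood test, other scalings and filters, and left-out libraries were alternatives. The fit was tested on simulated data.

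Same-numbered WT and DGCR8 KO libraries deviated together (correlations of 0.13 to 0.26, against -0.24 to -0.02 for other numbers), so their numbers may mark pairs. The main fit left this pairing out, and only the replicate block, an alternative, used it. Those of DDX6 KO did not all do so (-0.04 to 0.13 with WT). Replicate libraries differed beyond counting noise. All 9 genes were named. Genes of other lists were named where they passed with a mean of at least 5 CPM, at most 4 per direction and list. Cdh1, Pou5f1, Sox7, Elf5, Pax6, Esrp1, Cldn6, Usp17lc and Zscan4c were named outside this rule, after their values were seen. So were Sall1 in DGCR8 KO and the genes overlapping a marker. Some genes that the rule names are not reported here. The genes and lists were chosen with earlier results of these data known. Gene models and transcripts came from Gencode M21 and miRNAs from RefSeq, both GRCm38.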

Additional observations from a re-analysis of the deposited data

Results flagged for a closer look

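The DGCR8 KO libraries differed from the DDX6 KO libraries for 6 of the 8 tested genes, by the direct comparison in limma. Of all tested genes, 44% passed it, and line or clone and genotype cannot be told apart. The difference, DGCR8 KO minus DDX6 KO on the log2 scale, was 2.60 for Otx2, -2.44 for Sox4, 1.29 for Zic2, 1.21 for Grhl2, 1.139 for Foxd3 and 0.88 for Sox11. For each, all 3 DGCR8 KO libraries lay on 1 side of all 4 DDX6 KO libraries, as they did for 45.8% of all tested genes.

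Zic2 and Sall2 each had 1 of the 4 DDX6 KO libraries far from the other 3. The gap took 0.850 of the whole range for Zic2, where clone 2 replicate 1 stood at 23.2 CPM, and 0.8293 for Sall2, where clone 1 replicate 2 stood at 18.4 CPM. Chance gives about 1 such gap in 20 groups, and the Sall2 range was 16.1 to 18.4 CPM.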

How the results depend on the processing

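The 16 passing values of the 8 genes were each recomputed under 22 or 24 alternatives, which gave 374 values in all. Of these, 362 kept direction and passed, 12 kept direction without passing, and 0 reversed. Of these 12, 9 came from spike-in scaling, which was chosen after seeing the data and moved the median log2 fold change of all genes to -0.15 in DGCR8 KO, 0.07 in DDX6 KO and -0.20 directly; total counts moved it to 0.15 in DDX6 KO and -0.13 directly. With spike-ins the called genes numbered 2 in DGCR8 KO, 2 directly and 3 in DDX6 KO. Spike-ins took 1.10% to 2.36% of the reads, and the cause was not tested. Leaving out 1 library gave 3 to 5 called genes in DGCR8 KO, 3 in every case in DDX6 KO, 4 to 5 directly and 0 between clones. With the replicate block 4, 3, 5 and 0 were called, the same numbers as in the main fit, and Foxd3 in DGCR8 KO passed without being called. edgeR also passed Foxd3 there (adjusted p = 0.046). Without WT replicate 3, Sox4 was called in DGCR8 KO (-1.01); without DGCR8 KO replicate 2, Sox11 was called directly (1.09); with total counts, Sox11 was called in DDX6 KO (1.01). The 6-base seed match raised the genes with a match from 1 to 3 because it is shorter. The lowest level, 2 to 5 Grhl2 counts per WT library, limits the precision of its fold most.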
